A study of Mus musculus with 4 samples.

Results

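The genes described here are Hoxa3, Hoxa4, Hoxa5, Hoxa6, Hoxa7, Hoxa9, Hoxa10 and Hoxa11 of the mouse Hoxa cluster, together with Meis1 and Pbx3. They were taken by name as the rows of these symbols in the deposited table, which gave 10 of its 51826 features. RNA was sequenced from mouse bone marrow cells that carry MLL-AF9 by transduction and are labelled week 2. By title, the cells transduced were lineage-negative and c-kit+ (Lin-, c-kit+). The titles do not say whether the cells sequenced still were. The WT group had 2 libraries and the Elovl6 KO group, in which the gene for the fatty acid elongase Elovl6 is knocked out, also had 2. WT refers to Elovl6: both groups carried MLL-AF9, and no library without the fusion was analysed here. The labels give neither the strain, age or number of mice, nor the promoter behind MLL-AF9, nor whether the replicates were separate cultures, so p-values measure only the spread between these libraries.

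Hox proteins are homeodomain transcription factors encoded in clusters, and Hoxa9 and Hoxa10 are the members best known in blood stem cells, progenitors and myeloid leukaemia. Meis1 and Pbx3 belong to the TALE class of homeodomain proteins, which bind DNA together with Hox proteins. MLL-AF9 joins the chromatin-binding end of the histone methyltransferase MLL to AF9, a protein that recruits transcription elongation factors, and the fusion keeps the later Hoxa genes and Meis1 transcribed. In mice, forced expression of Hoxa9 with Meis1 is enough to give acute myeloid leukaemia.

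All 10 genes lie on the minus strand in mm10. The Hoxa genes span 76.7 kb from 52169062 to 52245810 on chromosome 6, with Hoxa3 at the 3′ end and Hoxa11 at the 5′ end. Meis1 lies at 18879817 to 19018985 on chromosome 11, and Pbx3 at 34171457 to 34373142 on chromosome 2. The promoters of Hoxa9, Hoxa10 and Meis1 are shown because these are the 3 members whose gene counts were lower in both KO libraries at an unadjusted p under 0.05. Each stretch holds 250 bases before and 50 bases after a start site in RefSeq (GRCm38.p6), read 5′ to 3′ along the gene. Capitals mark matches, on either strand, to common core promoter motifs. The TATA box was searched as TATAAA. The letters searched for the next motif, the CCAAT box, were those of its name. The GC box was searched as GGGCGG.
Hoxa9, chr6:52227321-52227620, minus strand: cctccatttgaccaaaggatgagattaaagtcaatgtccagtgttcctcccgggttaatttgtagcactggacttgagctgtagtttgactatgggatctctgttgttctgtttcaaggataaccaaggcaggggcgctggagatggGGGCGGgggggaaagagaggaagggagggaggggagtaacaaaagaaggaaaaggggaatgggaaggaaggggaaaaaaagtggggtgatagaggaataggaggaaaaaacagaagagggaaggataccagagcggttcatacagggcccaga
Hoxa10, upstream start, chr6:52240805-52241104, minus strand: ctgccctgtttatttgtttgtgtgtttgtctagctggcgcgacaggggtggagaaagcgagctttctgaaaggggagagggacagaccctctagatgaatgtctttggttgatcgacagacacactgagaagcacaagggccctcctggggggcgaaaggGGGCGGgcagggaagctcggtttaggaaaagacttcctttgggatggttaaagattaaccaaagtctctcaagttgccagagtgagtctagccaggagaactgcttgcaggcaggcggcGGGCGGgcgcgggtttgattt
Hoxa10, downstream start, chr6:52234890-52235189, minus strand: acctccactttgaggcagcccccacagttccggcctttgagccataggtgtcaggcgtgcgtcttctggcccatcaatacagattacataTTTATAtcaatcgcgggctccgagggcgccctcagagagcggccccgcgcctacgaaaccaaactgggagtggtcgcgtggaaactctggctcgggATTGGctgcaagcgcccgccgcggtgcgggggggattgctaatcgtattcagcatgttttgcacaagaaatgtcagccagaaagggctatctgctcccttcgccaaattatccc
Meis1, chr11:19018920-19019219, minus strand: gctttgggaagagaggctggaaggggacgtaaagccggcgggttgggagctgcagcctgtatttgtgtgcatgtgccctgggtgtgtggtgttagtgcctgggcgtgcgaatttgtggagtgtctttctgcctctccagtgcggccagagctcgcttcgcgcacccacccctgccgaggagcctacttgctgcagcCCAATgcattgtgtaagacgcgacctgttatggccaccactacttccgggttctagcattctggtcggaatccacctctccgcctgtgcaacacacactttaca

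RefSeq gave 9 promoters for 8 of the 10 genes. The Hox-Pbx motif TGATTNAT, searched on both strands, matched 0 of these 9 promoters and 3.22% of 32851 mouse promoters of the same length. The Meis motif TGACAG matched 1 of the 9, that of Hoxa3, against 19.2% of all promoters. The Hoxa9 promoter held 1 GC box, a motif present in 35.7% of all promoters, and neither a TATA box nor a CCAAT box, which occurred in 13.6% and 37.4%. The upstream Hoxa10 promoter held 2 GC box matches, 1 before and 1 after the start site. The downstream one held 1 match to the TATA box and 1 to the CCAAT box, both on the opposite strand. Its TATA match, read as TTTATA along the gene, began at −160 from the start site. The Meis1 promoter held 1 CCAAT box and none of the others. All of these are matches of letters alone, and whether any acts as a core promoter element was not tested. The Hoxa9 promoter had 4 CpG dinucleotides and the downstream Hoxa10 promoter 21, with a median of 7 over all promoters.

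The deposited gene counts summed to between 8986502 and 11941588 reads per library. Elovl6 had 1290 and 1673 gene counts in the WT libraries and 17 and 34 in the KO libraries (log2 difference −5.63, SE 0.17, adjusted p = 4.5e-05 with edgeR's quasi-likelihood test), so the libraries matched their labels. Kit, which encodes c-kit, stood between 111.4 and 139.9 CPM (gene counts scaled to a common library size with TMM factors) in the 4 libraries. Of 9 T and NK cell markers, 6 had a count in at least 1 library, while Cd3e, a marker of T cells, had none. Nkg7, on the same list, had 107 and 123 counts in the WT libraries and 97 and 104 in the KO libraries. Of 11738 genes tested on gene counts, 329 passed an adjusted p of 0.05. In bulk RNA, fewer cells of a type and less RNA per cell cannot be told apart.

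Per kb of the deposited exon length, Hoxa9 was the most abundant of the 10 genes. That length is 3506 bases for Hoxa9, against 5580 in the GENCODE annotation, and the order by GENCODE lengths was not computed. The gene counts of Hoxa9 came to 56.1 CPM per kb of exon as the mean of the 4 libraries, with a range of 47.3 to 64.3. Hoxa7 at 29.4 and Hoxa10 at 27.7 followed, and their libraries overlapped. Meis1 at 21.0 overlapped Hoxa10 and stood above Pbx3 at 12.4 in every library. Hoxa11, the most 5′ member, was at 4.68, Hoxa6 at 2.86 and Hoxa5 at 2.11, neighbours whose libraries overlapped. Hoxa3 at 0.282 and Hoxa4 at 0.131 were the lowest, and overlapped each other.

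**Figure D1:**
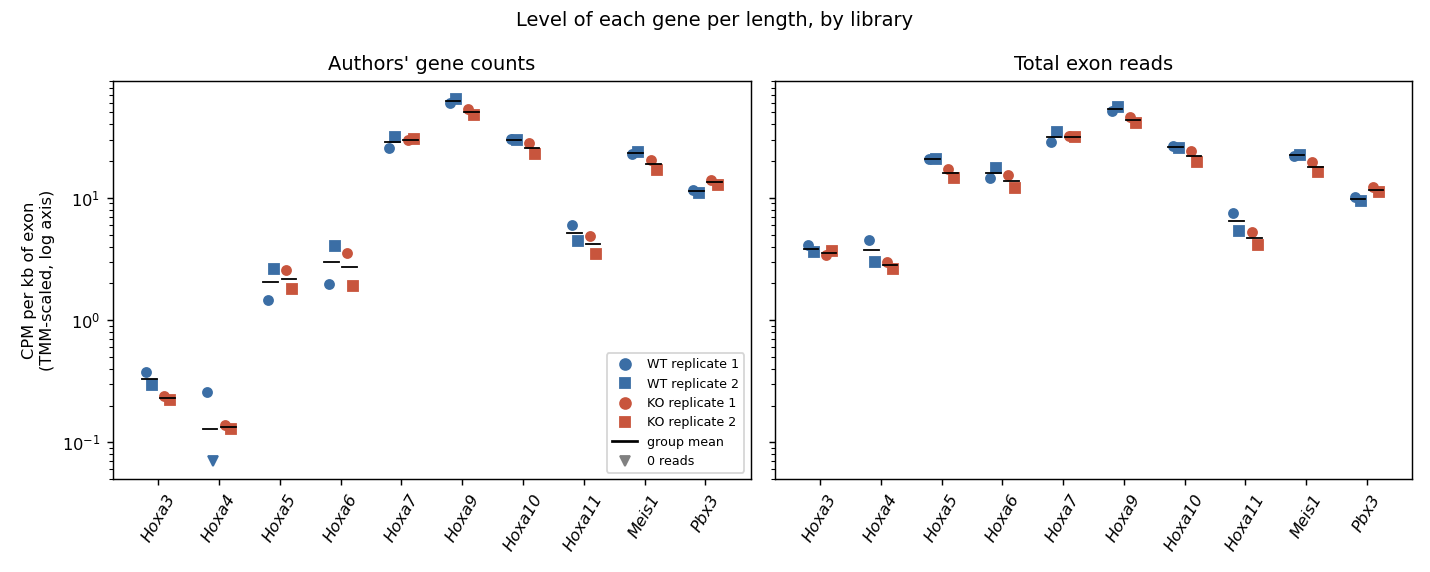
Level of each of the 10 genes in each library, as TMM-scaled CPM per kb of exon on a log axis, from gene counts and from total exon reads. Points are libraries (WT and KO, replicates 1 and 2), black lines are group means and a triangle marks a library with 0 reads. With the deposited exon lengths, Hoxa9 is highest by both measures. Hoxa3 to Hoxa6 stand far higher by total exon reads than by gene counts.

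The order of the lower genes depended on which reads were counted. The authors' gene counts rest on uniquely placed exon reads, and the table also lists total exon reads. Only 5.30% of the total exon reads of Hoxa3, 3.29% of those of Hoxa4, 9.96% of those of Hoxa5 and 16.5% of those of Hoxa6 were uniquely placed. For Hoxa7 the share was 80.3%, for Hoxa11 72.6% and for Meis1 90.1%, while Hoxa9, Hoxa10 and Pbx3 stood at 100%. Over 11362 features with at least 100 total exon reads the median share was 99.99%, and 7.53% of them were under 20%. In the GENCODE annotation, no exon base of Hoxa5 or Hoxa6 overlaps an exon of another gene, but both lie whole inside the spans of Hoxa3 and Gm28308 on the same strand and of Hoxaas3 on the opposite strand. Hoxa7 shares 586 bases with Hoxaas3, 20.4% of its exon bases, and 35.0% of the exon bases of Hoxa11 lie in Hoxa11os. The library kit keeps strand, but its use in the counting is unknown here, so reads of these genes and of their antisense partners cannot be told apart.

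**Figure D2:**
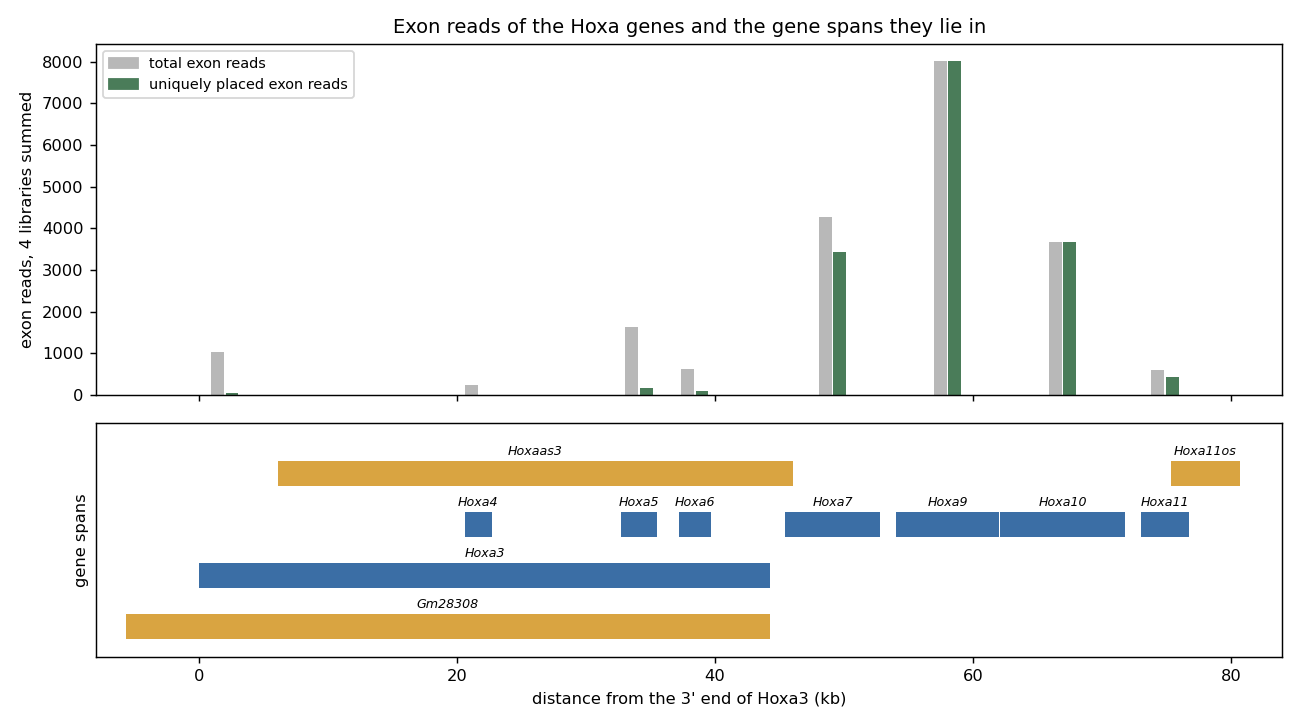
Total exon reads (grey) and uniquely placed exon reads (green) of the 8 Hoxa genes, summed over the 4 libraries, above a map of gene spans with distance from the 3′ end of Hoxa3 in kb. Bars stand at the middle of each gene, except those of Hoxa3, which stand at its 3′ end. Hoxa4, Hoxa5 and Hoxa6 lie inside the span of Hoxa3, and few of their exon reads were uniquely placed.

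By total exon reads, with the same deposited exon lengths, Hoxa9 again led at 48.6 CPM per kb. Hoxa7 followed at 31.7, Hoxa10 at 24.0 and Meis1 at 20.2. Hoxa5 came next at 18.4 and Hoxa6 at 14.9, ahead of Pbx3 at 10.7, and from Hoxa10 to Pbx3 each gene overlapped the next. Hoxa11 was at 5.58, Hoxa3 at 3.70 and Hoxa4 at 3.27. A total exon read may be counted for more than 1 gene, so these levels may be too high for genes that share a span.

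Between the groups, mean gene counts in KO were 18.8% lower for Hoxa9, 15.2% lower for Hoxa10 and 18.9% lower for Meis1, and 19.4% higher for Pbx3. None of the 9 tested genes passed the adjusted threshold. Library values are given below in the order WT replicate 1, WT replicate 2, KO replicate 1, KO replicate 2. Hoxa9, the Hox gene most tied to MLL fusions, had gene counts of 2049, 2689, 1676 and 1611, or 208.7, 225.3, 186.4 and 165.9 CPM. Both KO libraries lay below both WT libraries, with means of 217.0 ± 11.8 and 176.1 ± 14.5 CPM (SD, n = 2 each). The log2 difference of KO from WT was −0.30 (SE 0.075, adjusted p = 0.0839, edgeR quasi-likelihood test over all genes). Hoxa10, which in mice can by itself give leukaemia when overexpressed, stood at 99.6, 96.5, 91.6 and 74.6 CPM. Its groups did not overlap, but KO replicate 1 lay close to the WT libraries and KO replicate 2 lower (log2 −0.24, SE 0.10, adjusted p = 0.234). Hoxa7, which was found activated together with Meis1 in retroviral mouse leukaemias, stood at 74.0, 91.2, 86.2 and 86.5 CPM. The KO libraries of Hoxa7 lay between the WT libraries (log2 0.061, SE 0.10, adjusted p = 0.781).

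The remaining Hoxa genes had few uniquely placed reads. Hoxa11, a gene of limb and urogenital development, had 134, 121, 100 and 77 gene counts, and its groups overlapped in CPM (log2 −0.32, SE 0.23, adjusted p = 0.488). Hoxa3, which patterns the pharyngeal organs, had 22, 21, 13 and 13 counts (log2 −0.51, SE 0.36, adjusted p = 0.474). Hoxa5, a gene of lung development, had 27, 59, 43 and 33 counts and Hoxa6 had 17, 42, 28 and 16. Both were highest in WT replicate 2 and their groups overlapped, with log2 differences of 0.067 (SE 0.36) and −0.17 (SE 0.47). Hoxa4 had 4, 0, 2 and 2 counts and was too low to be tested. Its KO to WT ratio was 1.17, with a 95% interval from 0.217 to 6.27 that covers counting error only.

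Meis1, the DNA-binding partner of Hoxa9, had gene counts of 2354, 2956, 1942 and 1743, or 239.7, 247.7, 215.9 and 179.4 CPM. Both KO libraries were lower than both WT libraries, with KO replicate 2 the lowest (means 243.7 ± 5.62 and 197.7 ± 25.8 CPM, SD, n = 2 each). The log2 difference was −0.30 (SE 0.089, adjusted p = 0.121, edgeR). Pbx3, the partner that in human leukaemia cells is expressed along with HOXA9, stood at 71.3, 66.5, 86.1 and 78.5 CPM. Both KO libraries of Pbx3 lay above both WT libraries (log2 0.26, SE 0.081, adjusted p = 0.141, edgeR).

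With the adjusted threshold, 0 of 9 members passed on gene counts in edgeR, where 2.8% of all tested genes did. DESeq2 and limma-voom also called 0 members, while calling 467 and 222 genes in all. At an unadjusted p under 0.05 there were 4 of 9, against 20.8% of all tested genes. Of these, 3 were lower in KO (Hoxa9, Hoxa10 and Meis1), against 9.11% of tested genes, and 1 was higher (Pbx3), against 11.7%. KO lay below WT without overlap for 4 of 9 (Hoxa3, Hoxa9, Hoxa10 and Meis1), against 27% of tested genes, and above it for Pbx3 alone among members, against 26.8%. The log2 difference was below 0 for 6 of 9 members and for 50.7% of tested genes, and its median was −0.24 over the 9 members and −0.0037 over all tested genes. Leaving out KO replicate 1 raised the calls among all genes from 329 to 1449, or 12% of those tested, and 3 of 9 members then passed: Hoxa9 (−0.39), Hoxa10 (−0.39) and Meis1 (−0.44), with adjusted p of 0.0086, 0.0153 and 0.00286 in edgeR. Without KO replicate 2 the differences of Hoxa10 and Meis1 were −0.096 and −0.17. By the corrected p of the authors' deposited table, 0 of 10 members passed and 1.71% of all features did. In the authors' deposited table the signed fold was −1.24 for Hoxa9, −1.24 for Meis1 and 1.18 for Pbx3.

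**Figure D3:**
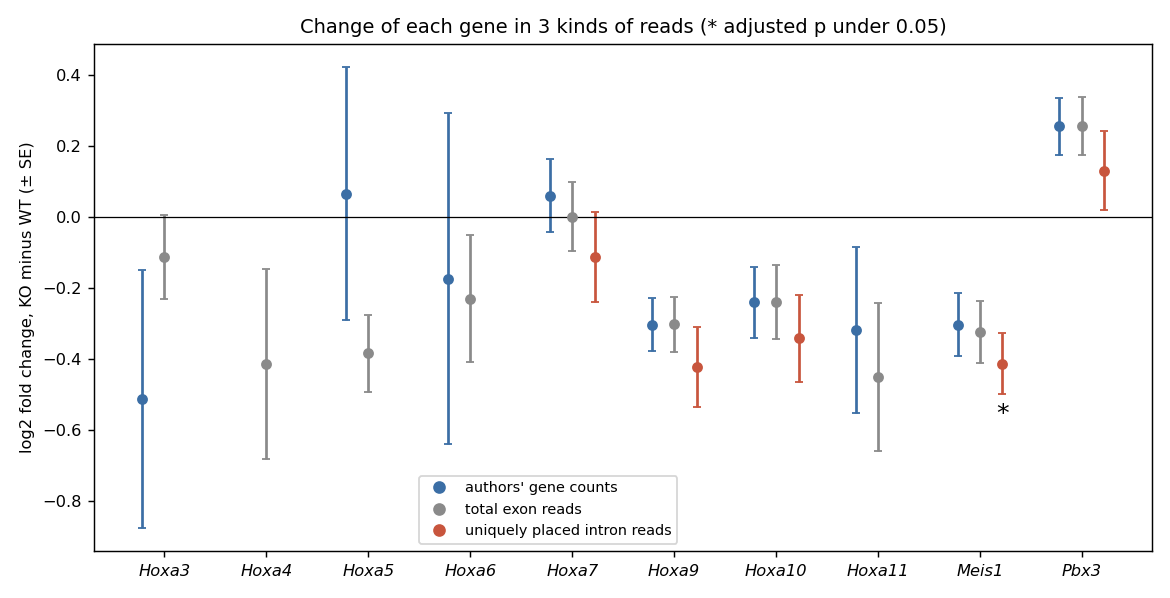
Log2 difference of KO from WT for each gene, with its standard error, from gene counts, total exon reads and uniquely placed intron reads. Values below 0 are lower in KO. Hoxa9, Hoxa10 and Meis1 lie below 0 by all 3 kinds of read, Pbx3 lies above 0, and Hoxa5 changes side between gene counts and total exon reads.

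The change of Hoxa5 depended on which reads were counted, and total exon reads were chosen as a readout after seeing the data. Hoxa5 had 439, 542, 336 and 309 total exon reads, or 38.7, 39.4, 32.5 and 27.5 CPM. Both KO libraries lay below both WT libraries (log2 −0.38, SE 0.11, adjusted p = 0.126, edgeR), whereas its gene counts differed by 0.067. Hoxa4 had 81, 66, 49 and 47 such reads (log2 −0.41, adjusted p = 0.433), and Hoxa11 had 194, 170, 125 and 106 (log2 −0.45, adjusted p = 0.289). Hoxa6 (log2 −0.23), Hoxa3 (−0.11) and Hoxa7 (0.0016) had overlapping groups. With these reads 0 of 10 members passed (2.43% of all tested), 4 of 10 had an unadjusted p under 0.05 (20.3%), and KO lay below WT without overlap for 6 of 10 (27.6%) and above it for 1, Pbx3 (26.3%). The log2 difference was below 0 for 8 of 10 members and for 51.2% of all tested features. Without KO replicate 1, 4 of 10 members passed, as did 10.8% of all tested features, where 2.43% did with all 4 libraries. These were Hoxa5 (−0.50), Hoxa9, Hoxa10 and Meis1, with adjusted p of 0.0257, 0.0154, 0.0207 and 0.0047 in edgeR.

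Intron reads, which come mainly from transcripts not yet spliced, fell for Meis1. Meis1 had 12022, 14061, 8758 and 8550 uniquely placed intron reads, or 1646, 1577, 1297 and 1125 CPM of intron reads. Both KO libraries lay well below both WT libraries, with means of 1612 ± 48.8 and 1211 ± 121 CPM (SD, n = 2 each). The log2 difference was −0.41 (SE 0.085, adjusted p = 0.0354, edgeR). Meis1 was the 1 member of 5 tested that passed, where 4.81% of all tested features passed and 2.23% were lower. Leaving out WT replicate 1 or WT replicate 2 ended the call, with differences of −0.39 (adjusted p = 0.167) and −0.45 (adjusted p = 0.0809) in edgeR, while it passed without either KO library. Meis1 has long introns and gave 4.82 intron reads per uniquely placed exon read.

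Hoxa9 had 478, 664, 385 and 363 intron reads, with both KO libraries the lower in scaled reads (log2 −0.42, SE 0.11, adjusted p = 0.0796, edgeR). Without KO replicate 1, when 10% of all tested features passed, the difference of Hoxa9 was −0.55 with an adjusted p of 0.0124 in edgeR. Its exons cover 3506 bases in the deposited table and 5580 in GENCODE, so some of its intron reads may lie in bases that GENCODE counts as exon, which was not tested. Hoxa10 had 235, 295, 186 and 183 intron reads (log2 −0.34, SE 0.12, adjusted p = 0.173), again with the KO libraries lower in scaled reads. Hoxa7 had 239, 328, 235 and 226 (log2 −0.11, SE 0.13), and its groups overlapped. Pbx3, with long introns and 9.21 intron reads per exon read, had 7208, 6880, 6590 and 7222. The scaled intron reads of Pbx3 overlapped, with WT replicate 1 the highest (log2 0.13, SE 0.11, adjusted p = 0.574). Hoxa11 had 5, 13, 3 and 4 intron reads, too few to test. Hoxa3 to Hoxa6 had no uniquely placed intron read, although Hoxa3 had 6325 intron reads in all. An unadjusted p under 0.05 was reached by 3 of 5 members (19.8% of all tested features), all 3 lower in KO (9.59%), and KO lay below WT without overlap for the same 3 (25.4%).

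A test of exon against intron reads asked whether spliced and unspliced RNA differed in their change. The exon change minus the intron change was 0.18 on the log2 scale for Hoxa7 (SE 0.12), 0.12 for Hoxa9 (SE 0.091) and 0.10 for Hoxa10 (SE 0.12). It was 0.11 for Meis1 (SE 0.067) and 0.11 for Pbx3 (SE 0.080). In edgeR 0 of 5 members passed (adjusted p between 0.522 and 0.807), where 1.65% of tested genes did. At an unadjusted p under 0.05 there were also 0 of 5 members, against 12.2% of all genes tested.

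**Figure D4:**
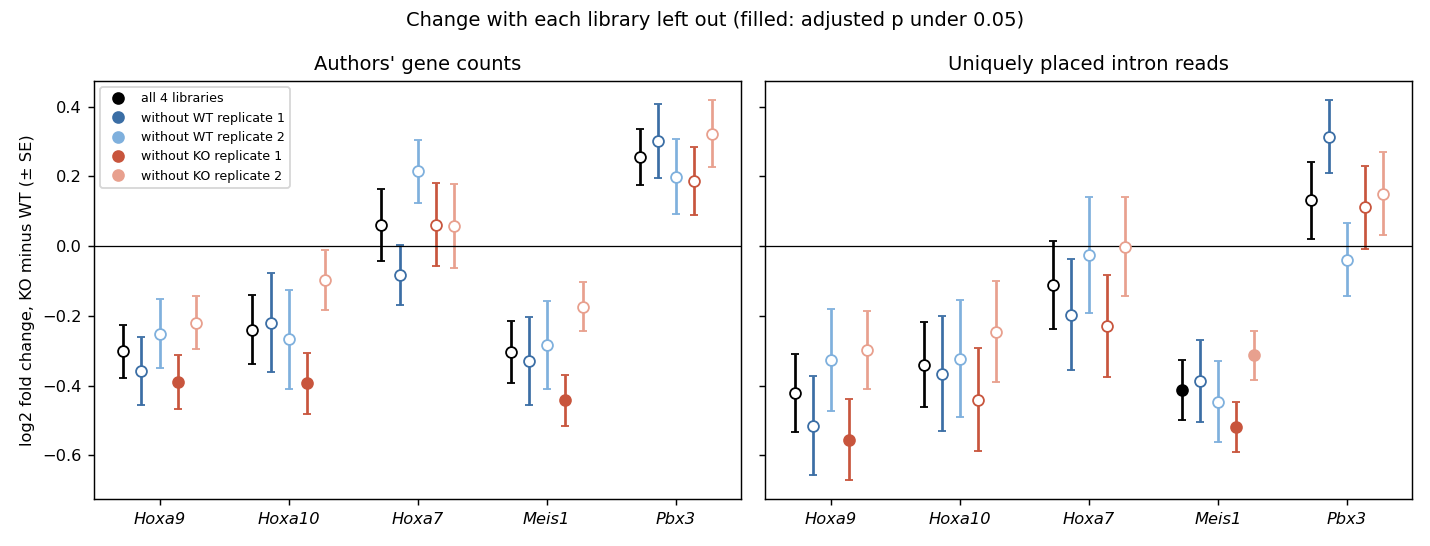
Log2 difference of KO from WT for Hoxa9, Hoxa10, Hoxa7, Meis1 and Pbx3 with its standard error, with all 4 libraries and with each library left out in turn, for gene counts and for uniquely placed intron reads. Filled points have an adjusted p under 0.05. Hoxa9, Hoxa10 and Meis1 lie below 0 in every case shown, whereas Hoxa7 changes side in gene counts and Pbx3 in intron reads.

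Ratios between members within a library do not depend on depth. Hoxa9 to Hoxa7 was 2.82, 2.47, 2.16 and 1.92 in gene counts and 2.00, 2.02, 1.64 and 1.61 in intron reads, so both ratios were lower in the KO libraries. Meis1 to Pbx3 was 3.36, 3.72, 2.51 and 2.29 in gene counts, and lower in KO for intron reads as well, at 1.67, 2.04, 1.33 and 1.18. Hoxa9 to Hoxa10, at 2.10, 2.33, 2.03 and 2.22, and Meis1 to Hoxa9, at 1.15, 1.10, 1.16 and 1.08, overlapped between the groups. Hoxa10 to Hoxa7, at 1.345, 1.059, 1.063 and 0.863 in gene counts, overlapped as well. Ratios that differ show only that the genes changed unequally. With 2 libraries against 2, an exact permutation test over samples cannot give a two-sided p below 1 in 3, so none is given for these ratios.

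Markers of other cell types also differed between the groups. Of 16 monocyte and macrophage markers tested, 4 passed the adjusted threshold and rose in KO (Cybb, Lyz2, Lgals3 and Fcgr3), where 2.8% of all tested genes passed. The log2 difference was above 0 for 15 of the 16 and below 0 for 1. KO lay above WT without overlap for 14, against 26.8% of tested genes. The summed monocyte level was 937.4 CPM and 1062 CPM in the WT libraries, 1650 CPM in KO replicate 1 and 2542 CPM in KO replicate 2, and none of the 17 genes measured was at 0. KO replicate 2 had the lowest Hoxa9, Hoxa10 and Meis1 values. It also had the highest sums of the monocyte, stem and progenitor, megakaryocyte and B cell lists. In that library Ighm gave 317.7 of the 324.7 CPM of the B cell sum. Cd93 gave 559.4 of the 970.8 CPM of its stem and progenitor sum. Cd79b (15.4, 15.5, 8.67 and 5.35 CPM in library order) and Igll1 (3.46, 7.88, 1.67 and 1.34), also B cell markers, were lowest in KO replicate 2. The sums of KO replicate 2 were the lowest for the primary granule, eosinophil, mast cell, erythroid and late neutrophil lists. Late neutrophil sums were 976.7, 1476, 2346 and 934.0 CPM in library order. Of 9 primary granule markers tested none passed, and their sums were 12740, 12780, 11420 and 8656 CPM in library order. The log2 difference was below 0 for all 9, with a median of −0.44, and for 50.7% of all tested genes. KO lay below WT without overlap for 7 of the 9, against 27% of tested genes. Of 7 eosinophil markers tested none passed, with sums of 409.9, 95.5, 54.2 and 19.7 CPM and with Ccr3 at 0. All 7 had a log2 difference below 0 (median −2.63), and KO lay below WT without overlap for 5. The stem and progenitor list, which includes Meis1, had 10 genes tested, of which 4 had a log2 difference above 0 and 6 below, with a median of −0.17. Cd93 was the 1 stem and progenitor gene that passed, and it rose (log2 0.55, adjusted p = 0.0124, edgeR). Among the other marker lists Car2, an erythroid marker, fell, and none of the tested late neutrophil, mast cell, megakaryocyte, B cell, T and NK or stromal genes passed. The part of these cell types in the Hoxa9, Hoxa10 and Meis1 values was not tested.

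Elsewhere in the Hoxa region no gene passed the adjusted threshold on gene counts. Hoxa2, near the 3′ end of the cluster, had 22, 14, 20 and 25 counts. Hoxa13 and Evx1 had none. Among noncoding genes of the cluster, Hoxa11os had 32, 26, 16 and 6 counts (log2 −1.18, adjusted p = 0.248) and Hoxaas3 had 24, 40, 23 and 26. Of 9 flanking genes tested none passed, with a median log2 difference of −0.031, and Snx10, an endosomal sorting nexin, came nearest (0.55, adjusted p = 0.0937). In the Hoxb, Hoxc and Hoxd clusters 22 of 28 genes had no count. Hoxb4, which expands blood stem cells when overexpressed, had 56, 80, 95 and 99 counts, higher in both KO libraries (log2 0.74, adjusted p = 0.0914).

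Of 8 other TALE genes tested 0 passed on gene counts, with a median log2 difference of 0.41. Pbx2 stood at 40.4, 40.8, 49.2 and 54.4 CPM (log2 0.35, adjusted p = 0.0991), above WT in both KO libraries. Pknox1, a relative of Meis1 that also binds Pbx proteins, stood at 88.1, 96.6, 76.4 and 76.0 CPM (log2 −0.28, adjusted p = 0.0959), below WT in both.

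Genes known as targets of MLL fusions, the members left out, did not share 1 direction. Of 18 tested, 1 rose and 1 fell, and their median log2 difference was −0.0095. Arid5b, a chromatin cofactor, was the gene that rose (log2 0.40, SE 0.070, adjusted p = 0.0423). Of 18 tested genes listed as targets of Hoxa9 and Meis1, Id2, an inhibitor of basic helix-loop-helix factors, rose (log2 1.07, SE 0.19, adjusted p = 0.0423), with a median of 0.089. The lists share 5 genes. None of 17 genes for cofactors of the MLL fusion passed (median 0.022), nor did any of 15 Polycomb and Hox chromatin genes (median −0.034). All these p-values come from edgeR's fit over all genes, whose median was −0.0037.

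Some genes followed the same pattern over the 4 libraries as Hoxa9 and Meis1. Likeness was measured as the root mean square difference of centred log2 CPM among 8566 genes with a mean of at least 10 CPM. Nearest to Hoxa9 were Tank (0.0078), Jmjd1c (0.011) and Gna15 (0.011), and nearest to Meis1 were Lrp4 (0.0081), Fmr1 (0.010) and P2ry2 (0.013). Jmjd1c, on the list of MLL fusion targets, stood at 782.3, 852.2, 696.3 and 631.5 CPM (log2 −0.30, adjusted p = 0.0785, edgeR). Likeness over 4 libraries is a description and was not tested.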

How the data were processed

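RNA was measured in 2 WT and 2 Elovl6 KO libraries, grouped by the labels. Per the labels' protocols, a Trizol extract of total RNA went into a directional library kit. Per the submitters' processing notes the build was mm10. No aligner, counter or strand setting was named in the labels or file headers. The deposited gene counts (expression values, per the file headers) equalled unique exon reads plus exon-exon reads placed in several genes, in 100% of features. The deposited table also gives total exon and intron read counts, the authors' RPKM values (total exon reads, used only as a check), their p-value and corrected p-value, and their signed fold change, a score below 0 where KO is lower.

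Gene counts, total exon reads and unique intron reads were each tested over the whole table with edgeR 4.0.16 (quasi-likelihood, TMM, filterByExpr with a minimum count of 10 and total of 15, Benjamini-Hochberg adjustment, threshold 0.05) in R 4.3.3. Exon against intron change was tested in 1 fit with library as a block. Library totals were 9883596 and 11941588 gene counts in WT and 8986502 and 9699502 in KO, and 11.1% to 13.8% of unique intron reads lay in Gm26917. Intervals cover counting error only. The scripts were tested on simulated data. Alternatives were DESeq2 1.42.0, limma 3.58.1 (voom), other scaling, no filter, a replicate block, each library left out, and, chosen after seeing the data, total exon reads and features with exons only. The members and the 20 gene lists were chosen with earlier results of these data known. All members are named, and from each list the genes past the threshold or up to 2 with the smallest p. Genes of the cluster, its noncoding genes and TALE genes could be named freely. Ighm is named outside this rule, for its share of a sum. Genes alike to Hoxa9 and Meis1 were the 3 nearest each. Values of a few listed genes are not reported here.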

Additional observations from a re-analysis of the deposited data

How the results depend on the processing

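Of 99 comparisons of a member's gene count difference with an alternative, 87 kept direction and side of the threshold, 6 passed the threshold and 6 changed direction. For intron reads 44 of 50 kept both, and for exon against intron 24 of 25. All genes called on gene counts went from 329 to 1677 without the filter, 875 with the replicate block and 14 to 1449 with a library left out (14 without WT replicate 1, 25 without WT replicate 2, 1449 without KO replicate 1), and on intron reads from 595 to 1565, 1430 and 287 to 1299. Members called on gene counts went from 0 to 3 without the filter (Hoxa9, Hoxa10, Meis1) and 0 to 3 with a library left out, and on intron reads from 1 to 2 without the filter and with the block (Meis1, Hoxa9) and 0 to 2 with a library left out. Direction changed for Hoxa5 (−0.28 to 0.56 with a library left out, −0.38 on total exon reads), Hoxa6 (−0.69 to 0.44), Hoxa7 (−0.082 to 0.22), Pbx3 introns (−0.039 to 0.31) and Pbx3 exon against intron (−0.011 to 0.24). The cause was not tested. Where a group is left with 1 library, it is assumed to vary like the other group. The equal replicate numbers were not taken as pairs, because no label pairs them. The deviations of WT and KO replicate 1 correlated at 0.094, which cannot settle whether the libraries were paired. Gene counts of Hoxa3 to Hoxa6 are limited by placement, with 8 to 162 uniquely placed of 243 to 1626 total exon reads over 4 libraries.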

Other observations

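Intron reads of the genes around the Hoxa and TALE pathway were not all described above. Of 77 such genes tested over 9 lists, members apart, 4 fell and 1 rose on unique intron reads (6.49%, against 4.81% of all features tested). They are named here after their values were seen. Ezh2, the methyltransferase of Polycomb complex PRC2, went from 231.3 ± 6.18 to 177.0 ± 10.97 CPM of intron reads (SD, n = 2 each, adjusted p = 0.0271, edgeR). Jmjd1c went from 1747 ± 1.20 to 1250 ± 117 (adjusted p = 0.0163, edgeR), in the same direction as its gene counts. Hlf, a factor of blood stem cells, went from 12.4 ± 1.83 to 6.03 ± 0.895 (adjusted p = 0.0348, edgeR). Of the genes flanking the Hoxa cluster, Jazf1 went from 63.2 ± 13.3 to 33.3 ± 0.207 (adjusted p = 0.0129, edgeR), although its gene counts overlapped. Creb5 rose from 24.97 ± 3.55 to 65.2 ± 31.2 (adjusted p = 0.0381, edgeR), with KO replicate 2 the highest at 87.3.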
